A study of Mus musculus with 14 samples.

Results

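The response of mouse peritoneal cells to endotoxin was described from 5 of the 14 arrays of the series, 3 from mice given lipopolysaccharide (LPS) alone and 2 from naive mice. The arrays were picked by their titles, and no measured value entered that choice. All mice were female C57Bl/6 x C3H F1 animals aged 12 to 16 weeks. The LPS mice received 60 µg of LPS from Salmonella minnesota per mouse through a tail vein, and the naive mice received none. The other 9 arrays came from mice given SMD, a compound the labels do not spell out, on the nares at 100, 200 or 300 mg/kg (3 arrays each) before the same dose of LPS, with cells taken 2.0 h after it. Those 9 arrays entered only the estimate of spread and a side-by-side reading of levels. The labels do not state when the cells of the LPS and naive groups were taken, or whether these mice were given a vehicle or anaesthetic. They call the LPS arrays biological replicates and the naive arrays replicates, and do not say how many mice lie behind each, so the p-values reflect only how these samples scatter, and that scatter may be technical.

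LPS, a glycolipid of the outer membrane of Gram-negative bacteria, is sensed by TLR4 with CD14 and MD-2, and the signal reaches NF-kB, MAP kinases and the interferon regulatory factors. Macrophages are the main responders among the cells of the peritoneal cavity, which also holds B cells, mast cells and a few T cells. Resident peritoneal macrophages are known to depend on the transcription factor GATA6, which retinoic acid maintains, and to express TGF-beta 2. The cytokine, chemokine and interferon genes that endotoxin raises are well described, so the account below gives most room to genes with lower signal after LPS and to functions outside those lists.

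The unit is the signal of a probe set, 1 number for the set of short probes that reads a transcript, scaled by the authors so that the trimmed mean of each array was 500. Changes are LPS minus naive on the log2(signal + 16) scale, on which 1 is a doubling of signal + 16, with limma's standard error (SE). P-values were adjusted over all 45037 probe sets, and called means an adjusted p below 0.05. The 3 LPS arrays correlated with each other at r = 0.914 to 0.923 over probe sets, the naive arrays at 0.935, and LPS with naive arrays at 0.866 to 0.881. Among these 5 arrays LPS replicate 2 stood apart in RNA quality. Its 3'/5' signal ratio was 5.86 for actin and 92.05 for Gapdh, against 1.92 to 3.05 and 4.54 to 16.83 on the other 4 arrays. Without LPS replicate 2, 2280 genes were called lower and 1383 higher, against 2374 and 1427 with it. On the 9 SMD arrays, which entered the estimate of spread, the ratios were 2.72 to 18.9 for actin and 20.96 to 178.71 for Gapdh. With the LPS and naive arrays fitted alone, 2303 genes were called lower and 1402 higher. The macrophage label was checked on defining markers. Adgre1 (21793.3 to 25125.3 in naive, 19187.3 to 20568.6 in LPS), Csf1r, Cd68, Lyz2 and Timd4 were bright in all 5 arrays and not called on the probe set used as deposited. After quantile normalization Adgre1 changed by -0.59 (adjusted p = 0.00772) and Csf1r by -0.42 (adjusted p = 0.0277), both called lower, and 1 of the 3 probe sets of Csf1r was called lower as deposited. B cell, mast cell and neutrophil transcripts were also present, and their values are given with the markers further on.

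After LPS 6668 of 45037 probe sets were called (14.8%), 2514 higher (5.58%) and 4154 lower (9.22%). Taking 1 probe set per gene, the one with the highest level in these groups, 2374 of 18193 genes were lower (13%) and 1427 higher (7.84%). Among the 9097 genes at or above the median level 38.7% were called, 23.9% lower and 14.8% higher. The median change of the lowered genes was -1.41 and that of the raised genes 1.32. Decreases of at least 3 log2 units were seen in 109 genes, and increases of that size in 161. Called decreases were thus more numerous in total, and called increases more numerous among the largest changes.

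That excess of decreases rested on the scaling of the arrays. The median change over all genes was -0.16 as deposited, -0.03 after dividing each array by its median or after quantile normalization, and 0.14 after dividing by the 75th percentile. The counts of genes moved with it, to 1693 lower and 1638 higher, 2078 lower and 1712 higher, and 1169 lower and 2231 higher. The share of called probe sets that were higher was 37.7% as deposited and 49.9%, 47.9% and 65.9% in the same order. A core of 1155 genes (6.35%) was called lower and 1331 (7.32%) higher under all 4 scalings, and the number in that core is given for the gene lists described. Either naive array also carried weight. Without naive replicate 1 the number of lowered genes was 1336 and without naive replicate 2 it was 1316.

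**Figure D1:**
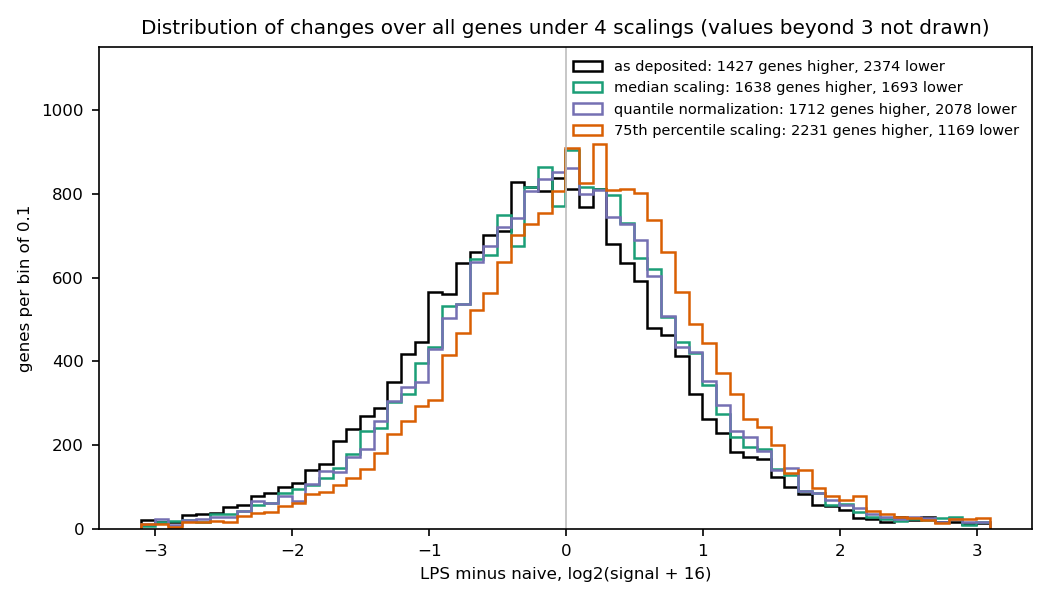
Distribution of the LPS minus naive change, on the log2(signal + 16) scale, over 18193 genes under the scaling as deposited and under 3 other scalings of the same arrays; lines are counts of genes per bin of 0.1. The distribution moved to the right by scaling alone, from a median of -0.16 to 0.14, and the numbers called lower and higher moved with it.

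**Figure D2:**
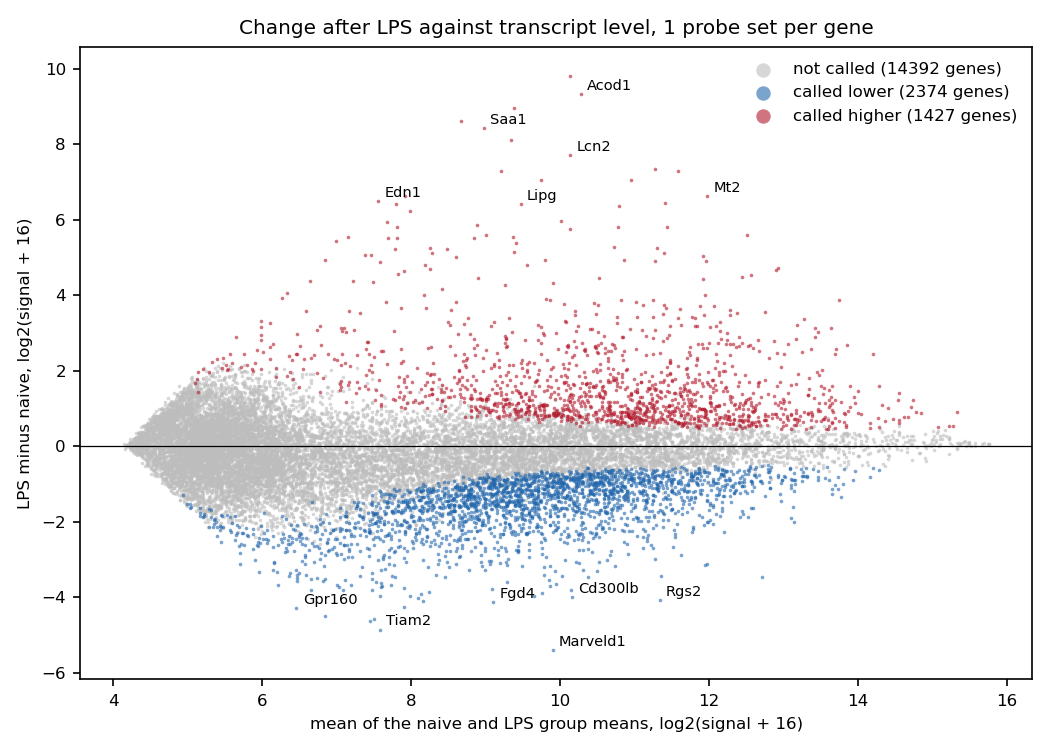
Change after LPS (vertical axis) against the mean of the naive and LPS group means (horizontal axis), both on the log2(signal + 16) scale, for 18193 genes, with called genes in colour and some named genes labelled. Of 2374 genes called lower 2177 lay at or above the median level. Called decreases reached -5.40 (Marveld1, on 1 of its 4 probe sets), and called increases reached beyond 9.

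The challenge itself showed in the textbook genes. Tnf rose from 109.1 and 35.5 in the naive arrays to 1566.0, 1331.3 and 1418.9, Il1b from 121.2 and 107.6 to 7335.1, 8058.1 and 9319.5, and Il6 from 233.0 and 201.0 to 3218.5, 4165.2 and 3061.6. Cxcl10, an interferon-induced chemokine that attracts T cells, rose by 9.82 ± 0.27 (SE), from 8.8 and 40.4 to 32630.9, 34154.3 and 34495.2. In each of these genes every LPS array lay above both naive arrays. Of 98 members of the cytokine, chemokine and interferon lists that were measured, 80 were called higher, beside 7.84% of all genes. Under all 4 scalings 14 of the 15 raised cytokine genes, 19 of the 20 raised chemokine genes and 43 of the 45 raised interferon genes were called. The promoter window of Cxcl10 is shown because it carries the letter patterns of both arms of TLR4 signalling, in capitals: an interferon response element pattern (GAAA, any 2 bases, GAAA) and then a kappaB pattern (GGGA, any 2 bases, TTCC). It is 250 bases before to 50 after the start of the gene, chr5:92348840-92349139 on the minus strand of GRCm38.p6, from RefSeq.
Cxcl10: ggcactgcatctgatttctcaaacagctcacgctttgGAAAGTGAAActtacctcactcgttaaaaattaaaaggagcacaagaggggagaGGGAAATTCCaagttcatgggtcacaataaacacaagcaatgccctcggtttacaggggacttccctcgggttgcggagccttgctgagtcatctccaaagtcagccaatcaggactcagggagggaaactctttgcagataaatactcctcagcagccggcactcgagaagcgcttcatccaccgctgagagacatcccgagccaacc

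Genes of retinoic acid handling were among those with the steepest decreases. Retinoic acid is made from retinaldehyde and acts through RAR and RXR receptor pairs on direct repeats in DNA, and cells that respond to it also induce the enzymes that limit it. Cyp26a1, the cytochrome P450 that degrades retinoic acid, had signals of 608.4 and 454.5 in the naive arrays and 10, 5.2 and 9.7 in the LPS arrays. Every LPS array was thus near the floor of the scale, and the gene fell by 4.49 ± 0.74 (adjusted p = 0.0001). Dhrs3, a reductase that returns retinaldehyde to retinol, stood at 3226.8 and 3435.2 in naive and at 350.3, 167.8 and 155.4 in LPS, a decrease shared by all 3 arrays, and fell by 3.89 ± 0.39 (adjusted p = 9.16e-08). Rarb, a retinoic acid receptor that is itself a classical target of retinoic acid, stood at 604.2 and 657.9 against 40.8, 35.2 and 122.3. It fell by 3.13 ± 0.79 (adjusted p = 0.00671), with no overlap between groups, but the call was lost without naive replicate 1, without naive replicate 2, and with a pseudocount of 1.

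Gata6, the GATA factor of resident peritoneal macrophages, fell by 1.67 ± 0.27 (adjusted p = 8.11e-05), from 2804.4 and 2526.3 to 887.6, 735.4 and 861.6. Each LPS signal was below both naive signals. Rxra, the RXR partner found in macrophages, read 614.9 and 557.9 in naive and 103.6, 126.7 and 138.2 in LPS and fell by 2.12 ± 0.59, a call lost without either naive array and after quantile normalization. The enzymes that make retinoic acid or its precursor were not called. Aldh1a2 read 1340.7 and 1595.4 against 1914.1, 1444.9 and 2818.1, and Rdh10 597.0 and 676.0 against 554.2, 435.8 and 452.5. Rxrb, another RXR, overlapped between groups. The retinoid list also held Gata6, which is neither a retinoid enzyme nor a retinoid receptor. Of its 19 measured genes 5 were lower, Gata6 among them, and 0 higher, with 4 of the 5 lower under all 4 scalings. The 26.3% lower stood beside 13% of all genes and 23.9% of genes at or above the median level. The number lower was 3 without either naive array, while 1 was higher without LPS replicate 2. The median of the list was -0.40, beside -0.16 over all genes, and only 8 of the 19 lay at or above the median level.

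**Figure D3:**
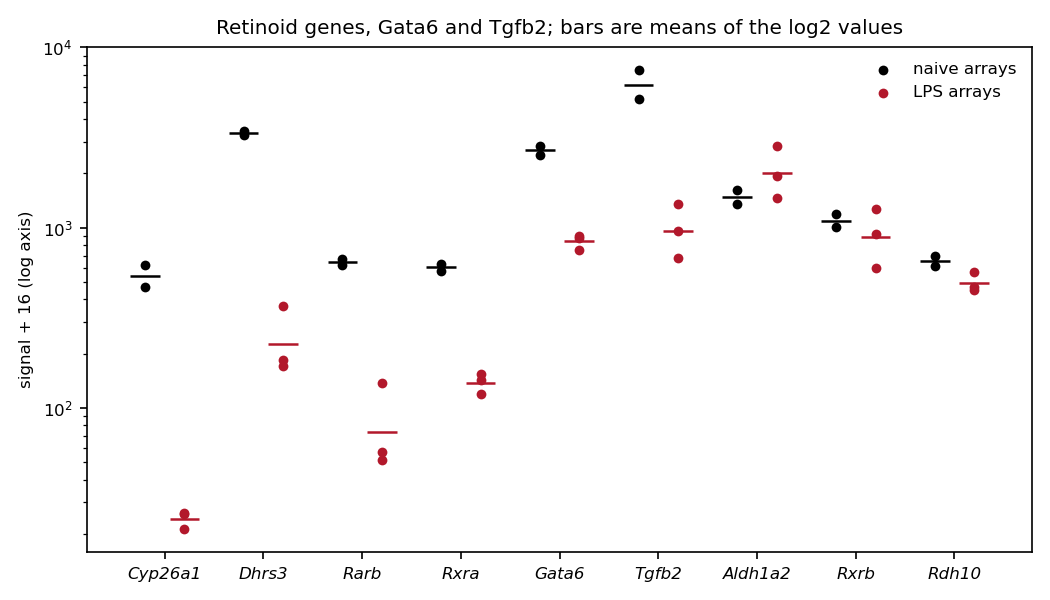
Signal + 16 on a log axis for 9 genes in the 2 naive (black) and 3 LPS arrays (red); each point is an array and bars are group means of the log2 values. Cyp26a1, Dhrs3, Rarb, Rxra, Gata6 and Tgfb2 were lower in every LPS array than in both naive arrays, whereas Rxrb overlapped and Aldh1a2 and Rdh10 were not called.

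The promoter windows of Cyp26a1 and Rarb are printed because both hold a DR5 retinoic acid response element, the spaced repeat bound by RAR and RXR, shown in capitals. The window of Cyp26a1 is chr19:37697558-37697857 on the plus strand and that of Rarb chr14:16575427-16575726 on the minus strand (RefSeq, GRCm38.p6, 250 bases before to 50 after the start).
Cyp26a1: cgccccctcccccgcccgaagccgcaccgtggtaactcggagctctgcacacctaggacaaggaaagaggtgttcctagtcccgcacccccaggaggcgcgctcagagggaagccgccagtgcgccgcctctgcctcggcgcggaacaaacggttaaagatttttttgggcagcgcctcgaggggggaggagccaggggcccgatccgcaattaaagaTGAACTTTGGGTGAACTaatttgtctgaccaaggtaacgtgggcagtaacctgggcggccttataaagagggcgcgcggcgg
Rarb: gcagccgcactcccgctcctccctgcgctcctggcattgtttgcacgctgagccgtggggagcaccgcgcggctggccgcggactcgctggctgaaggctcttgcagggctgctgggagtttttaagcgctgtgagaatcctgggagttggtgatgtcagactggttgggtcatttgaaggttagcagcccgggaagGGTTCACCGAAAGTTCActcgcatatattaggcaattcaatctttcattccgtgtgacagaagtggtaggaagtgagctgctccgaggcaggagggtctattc
The element lay 32 bases before the start in Cyp26a1 and 53 before it in Rarb. On either strand it was found in 32 of 32851 promoter windows (0.0974%) and in windows of 11 measured genes. Of these 11 genes 3 were called lower and 0 higher, beside 13% of all genes lower and 7.84% higher. The 3 were Cyp26a1, Rarb and the B cell survival factor Tnfsf13b, which fell by 1.37 ± 0.29. The other 8 included genes with signals near the floor. The motif search was chosen after the values of Cyp26a1 and Rarb had been seen, so these counts are a description.

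The 20 genes with the largest decreases, taken where the groups did not overlap and the naive level was at or above the median, fell by 3.80 to 5.40. All 20 were called under all 4 scalings and with each of the 5 arrays left out in turn. The calls as deposited and after median scaling, like the lack of overlap, were conditions of the choice. The 20 genes were read by 48 probe sets, of which 30 were called lower, 0 higher and 18 were not called. The 30 include the 20 probe sets through which the genes were chosen, and 10 of the genes had only 1 probe set. Nfia was lowered on 1 of its 6 probe sets, and the mean of the 6 was not called.

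Several of the 20 act on G proteins and the cytoskeleton. Rgs2, which speeds GTP hydrolysis by Gq, was bright in naive cells at 10783.1 and 10443.2 and read 517.2, 655.2 and 688.1 after LPS. It fell by 4.07 ± 0.30 (adjusted p = 7.26e-10). Tiam2, an exchange factor for Rac, read 1124.6 and 909.1 in naive and 6.0, 12.5 and 55.8 in LPS and fell by 4.85 ± 0.65. Fgd4, an exchange factor for Cdc42, read 2184.7 and 2343.7 against 90.2, 128.6 and 131.5 and fell by 4.12 ± 0.40. All 3 LPS arrays of each gene lay far below both naive arrays. Marveld1, a protein of the MARVEL membrane family, had the largest decrease of the named genes on the probe set used. It fell by 5.40 ± 0.44 (adjusted p = 3.83e-09), from 6687.2 and 5761.7 to 163.6, 151.7 and 90.7. Another of its 4 probe sets fell by 2.25, though not under all 4 scalings, and the others, at -1.11 and -0.90, were not called. The mean of the 4 fell by 2.42, less than that of Hnmt (4.61). The orphan receptor Gpr160 read 374.8 and 365.7 in naive and 2.5, 1.9 and 8.2 in LPS, and Shank3, a synaptic scaffold protein, 310.4 and 418.7 against 31.0, 4.5 and 4.2. Both were called lower, but with LPS signals near the floor the size of the decrease was set by the pseudocount. For Gpr160 it was -4.27 ± 0.75 with 16, -6.35 with a pseudocount of 1 and -2.67 with 64, and for Shank3 -3.81 ± 0.77, -5.22 and -2.48. The same holds in part for the other decreases that ended near the floor, with Cyp26a1 at -5.87 and -3.03, Hnmt at -5.83 and -3.37 and Tiam2 at -5.85 and -3.64 for pseudocounts of 1 and 64.

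Others are enzymes and receptors. Hnmt, the methyltransferase that inactivates histamine inside cells, read 758.7 and 953.4 in naive and 3.7, 77.8 and 8.1 in LPS and fell by 4.61 ± 0.63. Hdc, which makes histamine from histidine, moved the other way. It rose by 3.20 ± 0.18 (adjusted p = 6.49e-12), from 999.2 and 1360.4 to 10959.5, 10251.0 and 11451.4, so the enzyme of synthesis was higher and the enzyme of breakdown lower in every LPS array. Abcd2, a peroxisomal carrier of very long chain fatty acids, fell by 3.91 ± 0.76. Pgap4, which adds a sugar to GPI anchors, fell by 4.01 ± 0.48, and Engase, which cuts N-glycans in the cytosol, by 3.97 ± 0.55. Cd300lb, an activating receptor of myeloid cells, fell by 3.98 ± 0.41, from 4285.7 and 4776.8 to 316.6, 145.2 and 428.7. Its LPS arrays were spread more widely than its naive arrays but did not approach them.

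Cell cycle regulators and nuclear factors made up most of the rest. Ccnd1, cyclin D1, which starts G1 progression with CDK4 and CDK6, read 2974.9 and 3326.3 against 191.0, 148.9 and 237.1 and fell by 3.95 ± 0.32 (adjusted p = 3.94e-09). All 3 of its probe sets were lower. Cdc25b, a phosphatase that activates mitotic CDK1, fell by 3.80 ± 0.50. Nfia and Nfic, transcription factors of the nuclear factor I family, were both lowered: Nfia fell by 4.25 ± 0.48 and Nfic fell by 3.85 ± 0.63. The zinc finger gene Zfp760 fell by 4.09 ± 0.57. Mdm1, a centriolar protein, fell by 4.56 ± 0.58 and Kctd12b by 3.95 ± 0.83.

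**Figure D4:**
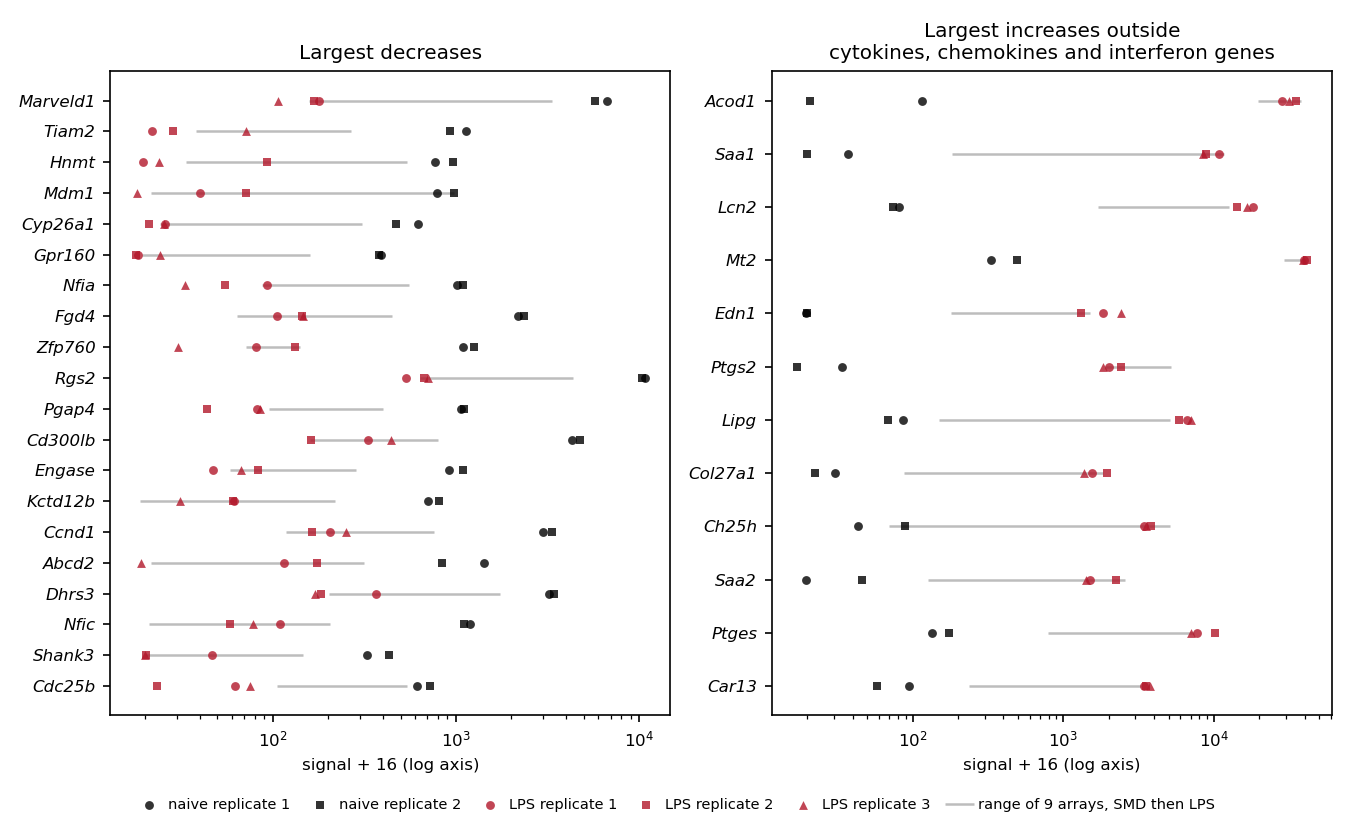
Signal + 16 on a log axis in each naive (black) and LPS (red) array for the 20 largest decreases and the 12 largest increases outside the cytokine, chemokine and interferon lists; marker shape gives the replicate and grey lines span the 9 arrays of mice given SMD and LPS. The 32 genes were chosen among those whose LPS and naive arrays did not overlap. Of the grey ranges only those of Mdm1 and Ch25h reached naive signals.

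Adhesion and chemoattractant receptors changed in both directions. Among 23 integrins and adhesion adaptors 6 were lower and 1 higher (median -0.51), 3 of the 6 under all 4 scalings, and 3 were higher without LPS replicate 2. The 26.1% lower was near the 23.9% of genes at or above the median level. Selplg, the P-selectin ligand PSGL-1, fell by 1.80 ± 0.25, from 8458.8 and 7879.7 to 2585.1, 1833.5 and 2691.7, while Itga9, an integrin alpha subunit, rose by 2.34 ± 0.26, from 163.6 and 186.5 to 1032.1, 723.1 and 1154.4. Among 26 receptors for chemoattractants and nucleotides 5 were lower and 5 higher, all 10 under all 4 scalings, with a median of -0.26 that turned to 0.13 with the 75th percentile scaling. Each direction held 19.2% of the list, beside 23.9% lower and 14.8% higher among genes at or above the median level. Ccr2, the receptor of the monocyte attractant CCL2, read 4055.0 and 4364.5 against 307.4, 194.7 and 401.5 and fell by 3.79 ± 0.29 (adjusted p = 1.67e-09). S1pr1, the receptor that guides cells out along sphingosine 1-phosphate, fell by 2.47 ± 0.31, and the C3a receptor C3ar1 by 1.69 ± 0.29. Among the receptors that rose were those for formyl peptides (Fpr2, by 2.84 ± 0.18) and medium-chain fatty acids (Gpr84, by 3.84 ± 0.29). The C5a receptor C5ar1 rose by 1.83 ± 0.37 and the chemerin-binding Ccrl2 by 4.95 ± 0.22. The receptors for the complement peptides C3a and C5a thus moved in opposite directions.

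Second messenger genes changed in both directions. Of 21 genes of cyclic nucleotide signalling 9 were lower (42.9%, beside 13% of all genes and 23.9% of genes at or above the median level) and 3 higher, 5 of the 9 under all 4 scalings (median -0.48). Adcy7, an adenylyl cyclase of immune cells, read 11316.0 and 11410.8 in naive and 2711.7, 3334.6 and 3189.3 in LPS and fell by 1.88 ± 0.22. Pde7a, a cAMP phosphodiesterase, fell by 1.69 ± 0.22, whereas Crem, which encodes cAMP-responsive activators and the repressor ICER, rose by 2.73 ± 0.22. Creb1, the cAMP-responsive activator, fell by 1.47 ± 0.28, from 2048.2 and 1864.4 to 890.8, 593.5 and 635.8. The pair of CREB family genes thus stood on opposite sides in all 3 LPS arrays. Pde4b, another cAMP phosphodiesterase, rose by 1.54 ± 0.21 on its brightest probe set, but the mean of its probe sets was not called.

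Of 22 genes of phosphoinositide signalling 7 were lower (31.8%) and 3 higher (median -0.73), with 2 of the 7 under all 4 scalings, and 4 were lower without naive replicate 1. Pik3ca, the catalytic p110 alpha subunit, fell by 1.63 ± 0.25. The adaptors Pik3ap1 and Pik3r5, which couple PI3-kinase to Toll-like and G protein-coupled receptors, rose by 2.45 ± 0.21 and 2.86 ± 0.20. Pik3r5 read 1759.9 and 1598.9 in naive and 12660.3, 11393.6 and 12874.3 in LPS. Of 28 ion channels 7 were lower (25%, near the 23.9% of genes at or above the median level) and 2 higher, 5 of the 7 under all 4 scalings (median -0.55), and 1 was higher without LPS replicate 1 or naive replicate 2. The potassium channel genes Kcne3 and Kcnn4 fell by 2.52 ± 0.33 and 1.98 ± 0.28, and the lysosomal channel Mcoln2 rose by 2.26 ± 0.30.

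MEF2 transcription factors, which drive differentiation programmes and respond to calcium, were lower in the cases of Mef2a, Mef2c and Mef2d. Mef2a read 9475.9 and 7742.1 in naive and 2361.1, 3162.8 and 1854.7 in LPS and fell by 1.83 ± 0.21 (adjusted p = 7.5e-07). Mef2c read 2609.2 and 2829.1 against 678.0, 780.0 and 391.2 and fell by 2.17 ± 0.28. No array of either gene crossed to the other group. Mef2d fell by 1.73 ± 0.29 on the probe set used, and the mean of its probe sets was not called. In the KLF and MEF2 list 6 of 18 genes were lower and 1 higher, 4 of the 6 under all 4 scalings. The 33.3% lower stood beside 23.9% of genes at or above the median level. The single increase, of Klf2, was not called without LPS replicate 1, LPS replicate 3 or either naive array. The median of that list was -0.28 and turned to 0.12 with the 75th percentile scaling.

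In the TGF-beta and BMP list 6 of 26 genes were lower and 4 higher (median -0.44), with 4 in each direction under all 4 scalings. These shares, 23.1% and 15.4%, were near those of genes at or above the median level (23.9% and 14.8%). The ligand Tgfb2, a marker of resident peritoneal macrophages, read 7468.4 and 5148.8 in naive and 940.2, 1336.2 and 658.9 in LPS and fell by 2.70 ± 0.35 (adjusted p = 4.23e-06). Smad3, a transducer of TGF-beta, fell by 2.94 ± 0.35, and over the mean of its probe sets by 1.25, which was not called. The repressor Tgif1 rose by 1.75 ± 0.19, and the activin receptor Acvr1b by 1.94 ± 0.21 on its brightest probe set, but not over the mean of its probe sets. The ligand and its transducer were lower and the repressor higher in all 3 LPS arrays.

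Of 18 clock genes 4 were lower and 1 higher (median -0.55), 2 of the 4 under all 4 scalings, and 2 were lower without naive replicate 1. The 22.2% lower was near the 23.9% of genes at or above the median level. Bhlhe40, which represses CLOCK and BMAL1 targets, fell by 1.24 ± 0.27, and Nfil3, which opposes the PAR bZIP activators, rose by 2.89 ± 0.23, from 732.9 and 585.5 to 4752.7, 4241.6 and 6004.2. Among 31 enzymes that write or erase lysine and DNA methylation 13 were lower and 3 higher, 5 of the 13 under all 4 scalings (median -0.75). Here the share lower was 41.9%, beside the same 23.9%. The number lower was 8 without naive replicate 1 and the number higher 1 without naive replicate 2. Kmt2c, a histone H3 lysine 4 methyltransferase, read 3924.4 and 5109.5 against 1129.5, 1642.9 and 955.3 and fell by 1.87 ± 0.22. Kdm7a, a histone demethylase, fell by 1.69 ± 0.21 and the maintenance DNA methyltransferase Dnmt1 by 1.47 ± 0.28. Setdb2, a SET domain protein induced by interferon, rose by 1.97 ± 0.36 and was above both naive arrays in all 3 LPS arrays.

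Of 21 measured genes of fatty acid oxidation 6 were lower and 0 higher, 3 of the 6 under all 4 scalings, and the median was -0.65. The share lower, 28.6%, was near the 23.9% of all genes at or above the median level, where 18 of the 21 lay. Cpt1a, which commits long-chain fatty acids to mitochondria, read 3585.6 and 3169.7 in naive and 582.8, 654.5 and 864.7 in LPS and fell by 2.26 ± 0.27 (adjusted p = 1.62e-06). Acadm, the medium-chain acyl-CoA dehydrogenase, read 4462.6 and 4144.8 against 904.1, 1018.0 and 1372.7 and fell by 1.98 ± 0.21. In both genes the highest LPS signal was far below the lower naive one.

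The citric acid cycle list was split. Of 21 genes 4 were lower and 4 higher (median -0.37, and 0.03 with the 75th percentile scaling), 2 and 3 of them under all 4 scalings. Each direction held 19.0% of the list, beside 23.9% lower and 14.8% higher among genes at or above the median level. The number lower was 2 without naive replicate 2, and the number higher 2 without either naive array. Idh2, the mitochondrial NADP-dependent isocitrate dehydrogenase, fell by 1.69 ± 0.27, and Pdha1, a subunit of pyruvate dehydrogenase, by 1.16 ± 0.18. Idh3a, of the NAD-dependent enzyme, rose by 0.88 ± 0.18 on its brightest probe set, but the mean of its probe sets changed by -0.09. Acod1, the enzyme that makes itaconate from the cycle's cis-aconitate, had the largest increase outside the classic lists. It rose by 9.33 ± 0.38, from 99.0 and 4.7 to 28301.4, 34886.8 and 31535.5.

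Sphingolipid enzymes were lower in 6 of 23 genes and higher in 2 (median -0.32, and 0.08 with the 75th percentile scaling), 5 of the 6 under all 4 scalings. The 26.1% lower was near the 23.9% of genes at or above the median level, where 22 of the 23 lay. The 8.7% higher was under the 14.8% of those genes. Cerk, which phosphorylates ceramide, read 1915.0 and 2069.2 in naive and 284.4, 222.2 and 351.7 in LPS and fell by 2.75 ± 0.38. Sgpp1, the phosphatase of sphingosine 1-phosphate, fell by 1.89 ± 0.24. Sphk1, the kinase that makes sphingosine 1-phosphate, rose by 5.26 ± 0.50, from 13.8 and 66.6 to 2608.4, 1028.9 and 2469.4. The kinase was higher, and the phosphatase and the receptor S1pr1 lower, in every LPS array.

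Of 21 genes of NAD and kynurenine metabolism 6 were lower and 2 higher, 2 of the 6 under all 4 scalings (median -0.67). The 28.6% lower was near the 23.9% of genes at or above the median level. Of the 6 decreases, 2 were called without naive replicate 1 and 1 without naive replicate 2, and the number higher was 1 without LPS replicate 1, LPS replicate 2 or either naive array. Nampt, the rate-limiting enzyme of NAD salvage, rose by 2.43 ± 0.21, from 2217.8 and 2035.9 to 10622.7, 13868.2 and 10474.2. Of 29 autophagy genes 5 were lower and 1 higher (median -0.33, and 0.06 with the 75th percentile scaling), 3 of the 5 under all 4 scalings. Their 17.2% lower was under that 23.9%. The number lower was 3 without LPS replicate 2 and 2 without either naive array, and 2 were higher without LPS replicate 2. Atg4c, an ATG8-processing protease, fell by 3.20 ± 0.42 and the ULK1 relative Ulk2 by 2.07 ± 0.25.

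The DNA repair list had 11 of 32 genes lower (34.4%, beside 23.9% of genes at or above the median level) and 0 higher, with a median of -0.82. Only 3 of the 11 were called under all 4 scalings, and without either naive array 2 were lower. Prkdc, the catalytic subunit of DNA-dependent protein kinase, was called in each of these settings and fell by 1.58 ± 0.25. It read 1173.2 and 1234.3 in naive and 413.8, 418.3 and 346.3 in LPS. The cilium and centriole list likewise had 7 of 26 lower (26.9%) and 1 higher (median -1.23), of which Mdm1 alone was lower under all 4 scalings. The number lower was 2 without LPS replicate 3 and 1 without either naive array. Only 13 of its 26 genes lay at or above the median level.

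Among scavenger and efferocytosis receptors 4 of 24 were lower and 3 higher (median -0.11, and 0.24 with the 75th percentile scaling), 2 in each direction under all 4 scalings. These shares, 16.7% and 12.5%, were under those of genes at or above the median level (23.9% and 14.8%). The number lower was 2 without naive replicate 1, and the number higher 1 without LPS replicate 3 or either naive array. Mertk, the receptor for phosphatidylserine bridged by GAS6 and protein S, fell by 1.28 ± 0.26, from 2176.7 and 1943.4 to 635.1, 942.8 and 977.7. Olr1, the receptor for oxidised LDL, rose by 3.20 ± 0.27 and exceeded both naive arrays in all 3 LPS arrays.

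**Figure D5:**
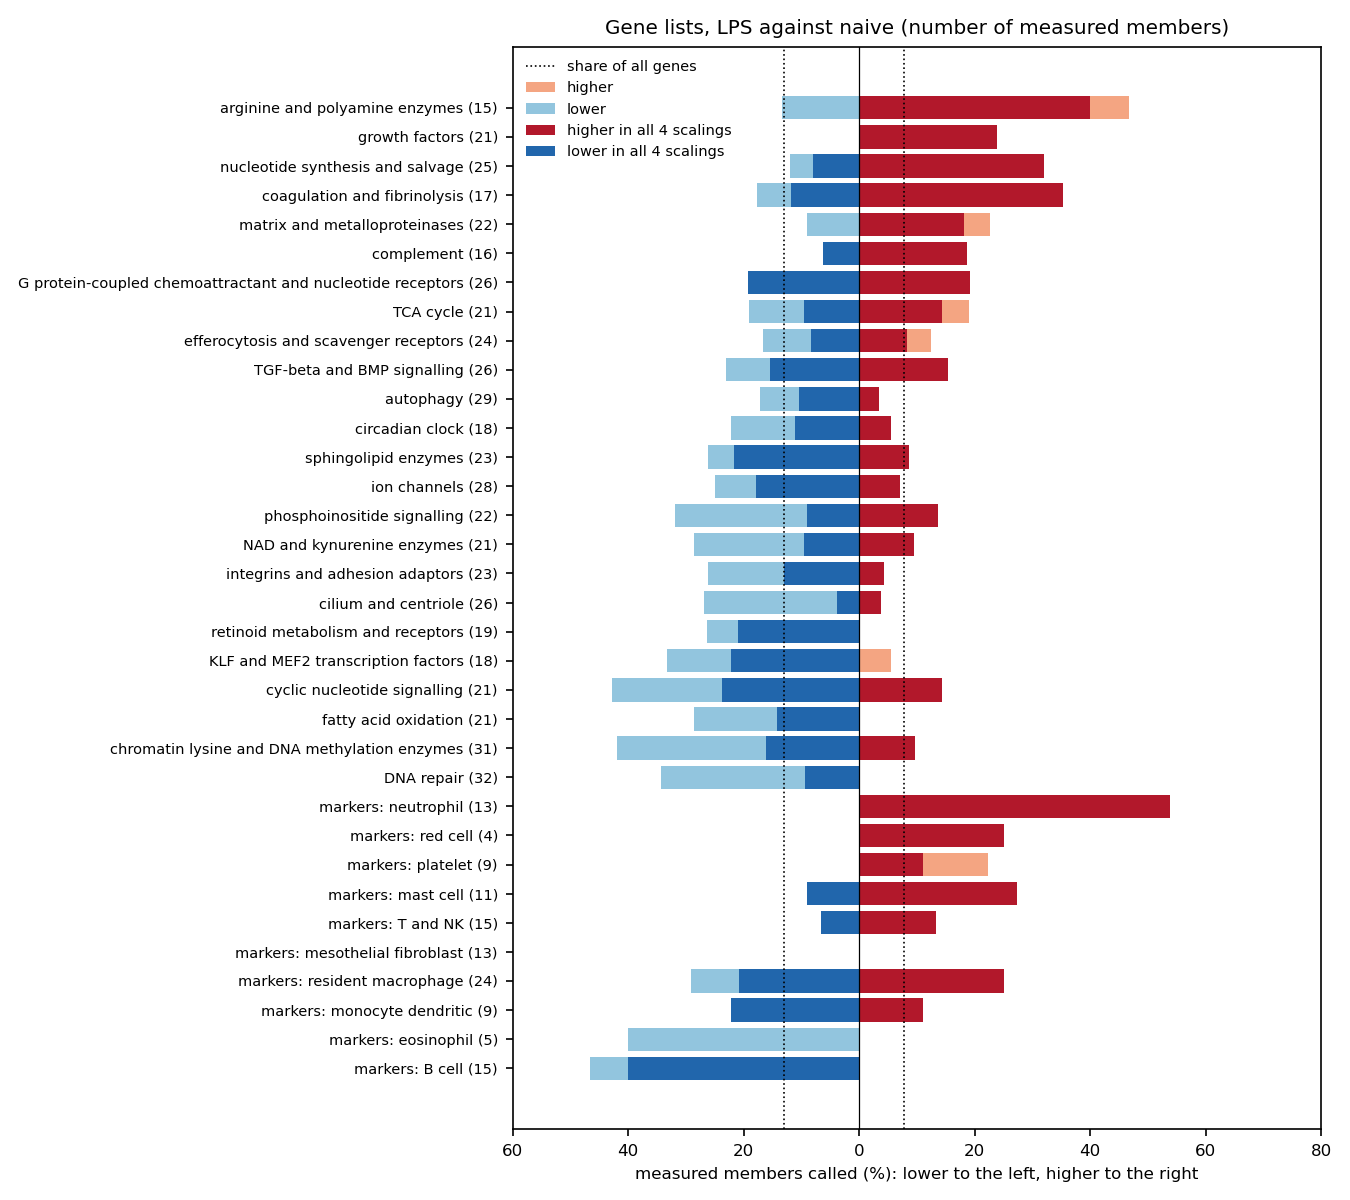
Share of measured members (number in brackets) called lower, to the left, and higher, to the right, in the function and marker lists; dark bars are members called under all 4 scalings and dotted lines mark the shares over all genes, 13% lower and 7.84% higher. Among the function lists drawn, cyclic nucleotide signalling had the longest dark bar to the left and arginine and polyamine enzymes to the right.

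The 12 largest increases outside the cytokine, chemokine and interferon lists rose by 5.60 to 9.33. After Acod1 came acute phase and metal-binding proteins. Saa1 read 21.1 and 3.9 in naive and 10808.0, 8890.4 and 8491.0 in LPS and rose by 8.43 ± 0.47. Lcn2, lipocalin 2, which binds bacterial siderophores, rose by 7.71 ± 0.24, and Mt2, a metallothionein, by 6.63 ± 0.17, from 314.2 and 480.4 to 39819.8, 41230.0 and 39292.5. Saa2 rose by 5.81 ± 0.41. Saa1 and Saa2 are near-identical genes whose probes may share transcripts.

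Vasoactive and lipid mediators followed. Edn1, the peptide vasoconstrictor endothelin 1, was near the floor in naive cells at 3.7 and 3.9 and read 1833.3, 1293.1 and 2402.0 after LPS, an increase of 6.51 ± 0.30. Ptgs2, cyclooxygenase 2, and Ptges, which makes prostaglandin E2 from its product, rose by 6.43 ± 0.29 and 5.75 ± 0.30. Lipg, endothelial lipase, rose by 6.41 ± 0.56 and Ch25h, which makes 25-hydroxycholesterol, by 5.86 ± 0.60. Col27a1, a fibrillar collagen, rose by 5.94 ± 0.48, and Car13, a cytosolic carbonic anhydrase, by 5.60 ± 0.37, from 78.0 and 42.0 to 3429.3, 3517.2 and 3748.6. Sizes of increases from naive signals under 100 depend on the pseudocount of 16, which keeps them smaller than a plain ratio would.

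Enzymes of arginine and polyamine metabolism were the function list with the largest share of increases, 46.7%, beside 14.8% of genes at or above the median level. Of 15 measured genes 7 were higher and 2 lower, 6 and 0 of them under all 4 scalings (median 0.56), and the 2 decreases were not called without LPS replicate 2 or either naive array. The arginine carrier Slc7a2 read 1300.2 and 1517.8 in naive and 18127.5, 17133.3 and 17023.3 in LPS and rose by 3.62 ± 0.29. Arg2, the mitochondrial arginase, rose by 5.01 ± 0.31. Odc1 and Srm, the enzymes that make putrescine and spermidine, rose by 1.61 ± 0.15 and 2.14 ± 0.22. Transport, ornithine production and the first steps of polyamine synthesis were thus each represented by a gene that was higher in every LPS array.

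Of 25 genes of nucleotide synthesis and salvage 8 were higher and 3 lower, 8 and 2 under all 4 scalings (median 0.53). Pnp, purine nucleoside phosphorylase, read 5348.4 and 6289.9 against 21832.2, 24469.8 and 24897.6 and rose by 2.03 ± 0.19. Upp1, uridine phosphorylase, rose by 3.05 ± 0.44 and Ctps, CTP synthase, by 1.57 ± 0.26. Their LPS arrays were all above both naive arrays.

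Coagulation genes were higher in 6 of 17 and lower in 3, 6 and 2 under all 4 scalings (median -0.11, and 0.25 with the 75th percentile scaling). The 35.3% higher stood beside 14.8% of genes at or above the median level. F10, coagulation factor X, read 5407.1 and 5694.3 in naive and 19789.7, 17830.5 and 20810.8 in LPS and rose by 1.81 ± 0.18. Procr, the protein C receptor, rose by 3.03 ± 0.46 and Serpinb2, a plasminogen activator inhibitor, by 1.02 ± 0.16. The transglutaminase F13a1 fell by 1.25 ± 0.21, from 5962.1 and 5773.4 to 3200.4, 2048.5 and 2248.5. Of 16 complement genes 3 were higher (18.8%, near that 14.8%) and 1 lower, all 4 under all 4 scalings (median 0.17). Factor B (Cfb) rose by 1.89 ± 0.24 and Cd55, which dismantles convertases on cell surfaces, fell by 1.40 ± 0.27.

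Matrix genes were higher in 5 of 22 and lower in 2, 4 and 0 under all 4 scalings (median 0.22), and 1 was lower without naive replicate 1. The 22.7% higher stood beside 14.8% of genes at or above the median level. The metalloproteinase Mmp14 and the inhibitor Timp1 rose by 4.80 ± 0.30 and 5.51 ± 0.44. Timp1 read 44.4 and 60.2 in naive and 3156.9, 2271.0 and 4024.1 in LPS. The proteoglycan gene Vcan rose by 3.29 ± 0.42. Growth factors were higher in 5 of 21 (23.8%) and lower in 0, all 5 under all 4 scalings (median 0.74), and 3 were higher without either naive array. Igf1 was counted among the 5 on its brightest probe set, which rose by 0.71. Other probe sets of Igf1 were called lower, at -1.19 and -1.07, and the mean of its probe sets changed by -0.23. Csf3 and Csf1, which support granulocytes and macrophages, rose by 5.52 ± 0.44 and 3.02 ± 0.35. Csf3 read 2644.7, 763.9 and 1692.3 in the LPS arrays, with LPS replicate 2 lowest, and 33.4 and 6.2 in naive.

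Markers of cell types moved as well. In whole-population RNA fewer cells of a type and less RNA per cell cannot be told apart. The marker counts stand beside 13% of all genes lower and 7.84% higher. Among genes at or above the median level the shares were 23.9% and 14.8%. Of 24 resident macrophage markers 7 were lower and 6 higher, 5 and 6 of them under all 4 scalings (median -0.03, from -0.37 to 0.37 over the scalings), and their summed signal was 301260 to 305522 in naive and 348334 to 362197 in LPS. Gata6, Tgfb2 and Garnl3 (lower by 2.53 ± 0.32) were lower, while Cd14, the LPS co-receptor, and Fcgr1, the high-affinity IgG receptor, rose by 2.45 ± 0.14 and 3.42 ± 0.33. The other 11 were not called, among them Timd4, Adgre1 and Csf1r, so the list as a whole had no single direction.

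Neutrophil markers were higher in 7 of 13 measured genes and lower in 0, all 7 under all 4 scalings, with summed signals of 3150 to 4137 in naive and 38463 to 40746 in LPS, of which Lcn2 gave 14263.8 to 18202.7. S100a8 read 915.4 and 837.6 against 9726.6, 12709.6 and 10771.7, and S100a9 and the granule gene Ngp rose by 3.88 ± 0.27 and 4.01 ± 0.41. The defining receptor Cxcr2 (5.9 and 8.7 in naive, 9.4, 65.5 and 19.7 in LPS) and the granule enzymes Mpo and Elane were near the floor and not called. The part of neutrophils in the increases of Lcn2, Hdc, Fpr2 and C5ar1 was not tested.

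B cell markers were lower in 7 of 15 and higher in 0, 6 of the 7 under all 4 scalings, with summed signals of 117891 to 122580 in naive and 83682 to 97078 in LPS. Without either naive array 4 were lower. Cd79b, a signalling chain of the B cell receptor, read 14002.1 and 17413.7 against 5886.6, 3222.7 and 7025.7 and fell by 1.61 ± 0.40, a call lost without naive replicate 2. Siglecg, an inhibitory lectin of B-1 cells, fell by 1.95 ± 0.30 and Blk, a B cell Src kinase, by 1.21 ± 0.24. The B cell genes Ms4a1, Cd22, Ighm, Blnk and Pou2af1 were bright in all 5 arrays and not called as deposited. Ms4a1 and Cd22 were called lower after quantile normalization (-0.82 and -0.47), and Blnk and Pou2af1 higher with the 75th percentile scaling (0.59 and 0.70). The part of B cells in the decreases of Mef2c, S1pr1 and Tnfsf13b was not tested.

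Mast cell markers were higher in 3 of 11 and lower in 1, all 4 under all 4 scalings (summed signal 45395 to 47625 in naive, 58100 to 65841 in LPS). Besides Hdc, Fcer1a, the alpha chain of the IgE receptor, rose by 1.52 ± 0.19, whereas Ms4a2, its beta chain, fell by 2.47 ± 0.39, from 1045.9 and 836.6 to 131.0, 247.2 and 114.8. Monocyte and dendritic markers were lower in 2 of 9 (Ccr2 and F13a1) and higher in 1, all 3 under all 4 scalings, and 0 were higher without naive replicate 2. Their summed signal was 13559 to 13721 in naive and 7762 to 10374 in LPS. T and NK cell markers were higher in 2 of 15 and lower in 1, all 3 under all 4 scalings, with Gzmb, granzyme B, at 105.3 and 87.6 against 3758.7, 3681.5 and 4490.1 while Cd3e, Cd3d, Cd3g, Ncr1 and Prf1 were not called. The number higher was 1 without LPS replicate 3 or naive replicate 1, and 2 were lower without LPS replicate 2. Eosinophil markers were lower in 2 of 5, neither under all 4 scalings, with 0 called without naive replicate 2 and 1 without LPS replicate 1, LPS replicate 2 or naive replicate 1. Of 13 mesothelial and fibroblast markers 0 were called on the probe set used, although 2 of the 3 probe sets of Krt8 were lower. Platelet markers were higher in 2 of 9, 1 of them under all 4 scalings, with 0 called without naive replicate 1 and 1 without LPS replicate 2, LPS replicate 3 or naive replicate 2. The only red cell marker called of 4, Alas2, was called under all 4 scalings but not without LPS replicate 3 or either naive array.

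Letter patterns were also counted in the promoter windows of all called genes, the cytokine, chemokine and interferon genes included. The interferon response element pattern was in 5.35% of windows of genes called higher, 2.30% of windows of genes called lower and 3.03% of windows of all measured genes. The kappaB pattern was in 2.06%, 1.27% and 1.49%. The AP-1 pattern (TGANTCA) was in 7.48%, 4.72% and 6.38%, and the CCAAT box in 33.1%, 38.0% and 37.4%. The E-box CACGTG was in 11.3%, 9.85% and 8.72%, and TATAAA in 10.4%, 6.23% and 9.77%. Of 3801 called genes 3523 lay at or above the median level. In the windows of all measured genes at or above it, the shares of these patterns in the order given were 3.32%, 1.56%, 5.20%, 37.1%, 10.5% and 7.16%. Each pattern was sought on both strands and may overlap another, a match is not a bound site, and these shares carry no test.

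The levels in mice given SMD and LPS were set beside those of LPS alone, without a test, since the comparisons share the LPS arrays and the harvest time of the latter is not given. The genes were chosen for large changes on those same LPS arrays, so other arrays may lie nearer naive levels for that reason alone. No share over all called genes was taken. RNA quality also differed. The actin 3'/5' ratio was 2.72 to 11.59, 9.03 to 10.73 and 6.99 to 18.9 at 100, 200 and 300 mg/kg. With LPS alone it was 1.92 to 5.86. Its part in the levels of the 9 SMD arrays was not tested. For 19 of the 20 named decreases all 9 of those arrays also lay below both naive arrays, and for Mdm1 8 of 9 did. Their median was higher than all 3 LPS arrays in 16 of the 20 genes. That median pools 3 doses, and some genes differed between doses. Mean signals at 100, 200 and 300 mg/kg were 264.7, 627.9 and 2785.6 for Marveld1 and 8436.7, 3543.8 and 717.4 for Saa1. For Zfp760 they were 92.7, 90.5 and 86.3. Cyp26a1 had a median of 84.8 (8.2 to 290.3) over the 9 arrays against 5.2 to 10 with LPS alone, Marveld1 795.0 (143.1 to 3356.4) against 90.7 to 163.6, and Rgs2 1779.0 (625.1 to 4340.7) against 517.2 to 688.1. Fgd4 had a median of 158.0 (47.9 to 434.2) against 90.2 to 131.5, so the LPS arrays lay within the range of the 9. For 10 of the 12 named increases the median of the 9 arrays lay below all 3 LPS arrays, with Edn1 at 869.4 against 1293.1 to 2402.0. The exceptions were Ptgs2, at 3510.4 against 1809.5 to 2398.6, and Acod1, at 31736.3 within the range of the LPS arrays.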

How the data were processed

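Total RNA of peritoneal cells was hybridised to 14 mouse arrays. Per the submitters' processing notes the authors used MAS5 (version not given in the sources used here), and they deposited 1 linear intensity for each probe set. Trimming 2% at each end left a mean of 500 on every array, so changes are relative to the rest of the array, and no detection calls were used. Depth does not apply, and the number of arrays limits precision.

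Of 45101 probe sets 64 controls were dropped and none was filtered, so that transcripts found mainly in the 2 naive arrays stayed in. Values were log2(signal + 16). limma 3.58.1 (R 4.3.3, with data.table, version 1.17.8) fitted 5 group means over 14 arrays with an intensity trend, two-sided, with Benjamini-Hochberg adjustment, and was checked on simulated data. The platform annotation gave 34945 probe sets 1 gene symbol, 932 several (not named) and 9160 none. 34741 symbols were updated through RefSeq (GRCm38.p6) and 204 kept. Of 857 list entries 789 were measured.

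The lists, rules and the choice of comparison were made with earlier results of these data known. Named genes were the 20 largest called decreases and 12 largest called increases outside the classic lists (groups not overlapping, called after median scaling, at or above the median probe set of the higher group), up to 4 called list members with the smallest p, and Tnf, Il1b, Il6 and Cxcl10. Other names (such as Rxra, Aldh1a2, Rdh10, Rxrb, Creb1, S1pr1, C3ar1, C5ar1, Dnmt1, Klf2, Tnfsf13b and markers not called) were chosen after their values were seen. The 75th percentile scaling was also added after seeing the data. The labels' replicate numbers did not pair samples (r = 0.027 and 0.026 for same-numbered deviations over 2 pairs). 1 gene list is not reported here.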

Additional observations from a re-analysis of the deposited data

How the results depend on the processing

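As deposited, 6668 probe sets were called, 2514 higher and 4154 lower. With the 75th percentile scaling 3877 were higher and 2009 lower (genes 2231 and 1169). Leaving out single arrays gave 3859 to 6294 called, 1691 to 2449 higher and 2145 to 3845 lower, or 974 to 1383 genes higher and 1316 to 2280 lower, with the low ends without either naive array (3859 and 3861 called; 2168 and 2145 lower; 1336 and 1316 genes lower). The replicate block, which pairs nothing in the labels, gave 6060 called, 2336 higher and 3724 lower. The other settings gave 4945 (no intensity trend) to 8359 (array weights). With a log2 change of at least 1 as well, 5105 were called. Over the mean of all probe sets of a gene, Idh3a changed by -0.09 and Igf1 by -0.23, both opposite to the probe set used, and the cause was not tested. Of 165 named genes 123 kept direction and call in all 17 settings. Limits: 2 naive arrays, harvest time not stated for the groups compared, MAS5 scaling, and dim signals without detection calls.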

Other observations

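Probe sets of 1 gene did not always move together. Of 9010 genes with more than 1 probe set, 1098 had at least 2 called, and 51 of these had calls in both directions, 11 of them under all 4 scalings. Tsc22d1, which encodes long and short leucine zipper proteins from separate promoters, was the clearest. 1 of its probe sets read 260.2 and 329.6 in naive and 34.4, 3.9 and 4.2 in LPS and fell by 3.50 ± 0.70, whereas 4 others rose by 1.51 to 1.96. The brightest of these 4 read 1104.2 and 1082.2 against 2629.2, 3635.8 and 3416.5. In Luc7l2, a splicing factor gene, 4 probe sets fell by 0.67 to 2.15 and 1 rose by 0.91 ± 0.22. In Kdm5c, a histone demethylase gene, 1 fell by 1.45 ± 0.27 and 1 rose by 0.72 ± 0.22. These genes were singled out after their values were seen, and which transcripts the probe sets read was not tested.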
